A study of Danio rerio with 8 samples.

Results

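RNA of OC precursors (pOC) was compared with RNA of OBs, both sorted from fractured scales of adult zebrafish on the day after fracture. The members of the comparison were 13448 of the 32057 Ensembl genes in the files, namely those listed at 1 RPM (reads in genes, scaled to the same total in every library) or more in both pOC libraries or in the OB library. Of these, 11674 reached 1 RPM in both pOC libraries and 12769 in OB, so that 679 entered through pOC alone and 1774 through OB alone.

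The fish were wild type in background and carried trap:GFP, in which GFP follows the upstream region of *acp5a*, a gene of OCs, and osterix:mCherry, in which mCherry follows the upstream region of medaka osterix, a gene of OBs. Scales were digested with Liberase at 37 °C, stained with Hoechst and sorted. The pOC gate (GFPlow) took Hoechst-high particles with low GFP that were also mCh+, and the OB gate (mCh+) took Hoechst-high particles with mCherry and no GFP. The other fractions, mature OCs (mOC, GFPhigh) and OB-derived extracellular vesicles (EV, mCh+ and Hoechst-low), entered the fit to estimate the spread. Each fraction has 2 libraries in the labels. The pOC gate asks for both reporters, so it can hold OBs that carry GFP+ material as well as precursors. The study also reports mCherry+ particles inside most GFP+ cells and attributes them to uptake of OB-derived vesicles. Whether OB transcripts in pOC came from OBs or from such particles was not tested. Reporter expression sets what each gate could hold. The gene behind each reporter, *acp5* and *sp7* in the files, is therefore not independent of the sort.

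OCs are made from cells of the monocyte and macrophage lineage, which need CSF1 receptor signalling to survive and RANK signalling to differentiate, and which fuse into cells that secrete protons and proteases onto bone. OBs are mesenchymal cells that secrete collagen I and other matrix proteins and bring about their mineralization. In fish scales both cell types lie on a dermal bone plate that is covered by epidermis and carries pigment cells, and the plate can be remodelled after injury.

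The pOC libraries held 24435516 and 24344411 reads in genes, against 14948031 in OB, and 3 reads corresponded to 0.123 RPM in each pOC library and to 0.201 RPM in OB. cDNA was amplified by PCR without molecular identifiers, so these floors cover counting error only. The files of both OB replicates held the same value for all 32057 genes, under the name of the second replicate, and were counted as 1 library. No s.d. can thus be given for an OB level, and the fit assumed that OB varies like the other fractions. The EV libraries stood apart from each other in several gene groups, and this enters the SE of the genes concerned. *col17a1b*, a keratinocyte collagen, was at 856 and 41.7 RPM in EV, and *pmela*, a melanophore gene, was at 31.3 and 509 RPM in EV. The mOC libraries also differed in collagen I genes, which enters the SE in the same way. *col1a2* was at 1455 and 700 RPM in mOC, and *col1a1a* at 231 and 116 RPM. In bulk RNA, fewer cells of a type and less RNA per cell cannot be told apart. The study describes its libraries as biological replicates of an experiment performed once, and neither it nor the labels say that they came from separate animals, so an s.d. or p-value measures the spread between these libraries.

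The labelled cell types were checked against their markers. The summed level of the 17 macrophage marker IDs was 2831 and 2325 RPM in pOC, against 635 RPM in OB. In mOC it was 3344 and 2649 RPM. Most of the sum in pOC was *lcp1*, at 1576 and 1088 RPM, and *spi1*, at 593 and 554 RPM. The 5 OC markers summed to 3296 and 3845 RPM in pOC, against 1933 RPM in OB. Most of this sum was *ctsk*, at 2949 and 3522 RPM in pOC, against 1719 RPM in OB, which was not called. *acp5* and *ocstamp* also lay above OB, while *tnfrsf11a* and *nfatc1* lay below it in both pOC libraries. The 8 OB marker IDs summed to 8556 and 8350 RPM in pOC, against 21908 RPM in OB. Most of this was *col1a2*, at 6182 and 6537 RPM in pOC, against 17068 RPM in OB. Of the 7 OB markers tested, 0 were called. Each sum thus lay in the direction of its label, but single markers did not all do so, and neither fraction was free of the other's markers. *bglap*, which encodes osteocalcin, was at 0 in every library, and *sp7*, the gene for osterix, was at 0.41 and 2.09 RPM in pOC, against 5.42 RPM in OB.

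**Figure D1:**
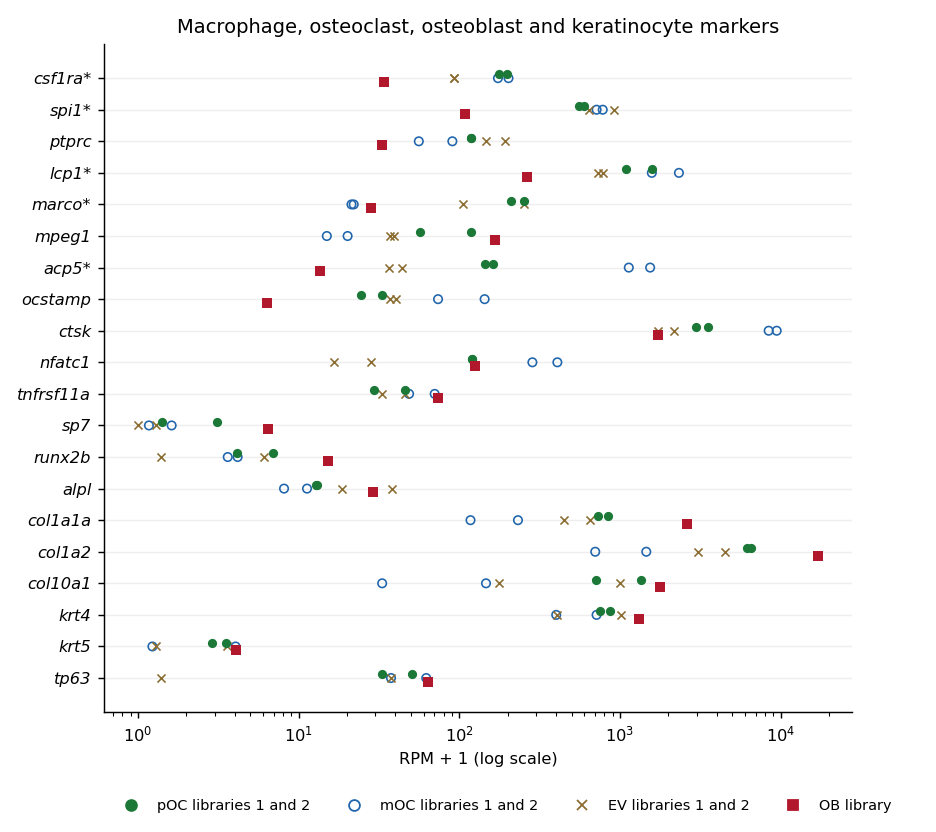
Levels of cell type markers as RPM + 1 on a log axis, with 1 point per library for pOC, mOC, EV and OB, and an asterisk on genes called between pOC and OB. The points of both pOC libraries lie to the right of OB for *csf1ra*, *spi1*, *lcp1*, *marco* and *acp5*, and to the left of OB for *col1a1a* and *col1a2*.

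Genes higher in pOC outnumbered genes lower in pOC in the test. The calls came from limma on log2(RPM + 1) and required a log2 difference beyond 1 with a p under 0.05 after Benjamini-Hochberg adjustment over all genes. In pOC, 165 genes (1.23% of those tested) were higher and 21 (0.156%) were lower. The log2 differences of the higher genes had a median of 2.29, and those of the lower genes had a median of -2.04, beside a median of -0.11 over all genes tested. By level alone the numbers were alike: 1231 genes (9.15%) were at least 2-fold higher and 1183 (8.8%) at least 2-fold lower in both pOC libraries, after 1 RPM was added to each value. At 4-fold the numbers were 267 (1.99%) higher and 47 (0.349%) lower. A gene under 1 RPM in OB could enter only if it was higher in both pOC libraries. Likewise, a gene under 1 RPM in both pOC libraries could enter only if it was higher in OB. This holds for 14 of the genes called higher, which were under 1 RPM in OB, and for 7 of those called lower, which were under 1 RPM in both pOC libraries. Such genes are given below by their levels, and the counts and medians of the lists, which also hold such genes, are descriptions.

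The calls rest on few libraries. Without pOC 1, pOC 2, mOC 1 or mOC 2, limma called 0 genes in either direction, with 895 to 991 genes higher and 581 to 807 lower at an unadjusted p under 0.05. With all libraries the unadjusted numbers were 1217 higher and 998 lower of 13448 genes, edgeR called 2 genes higher and 0 lower, and DESeq2 called 644 higher and 222 lower. The counts of each list below are to be read beside these numbers and the shares of all genes given above. A gene not called below is given by its levels, and the lack of a call does not show that its levels were alike.

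**Figure D2:**
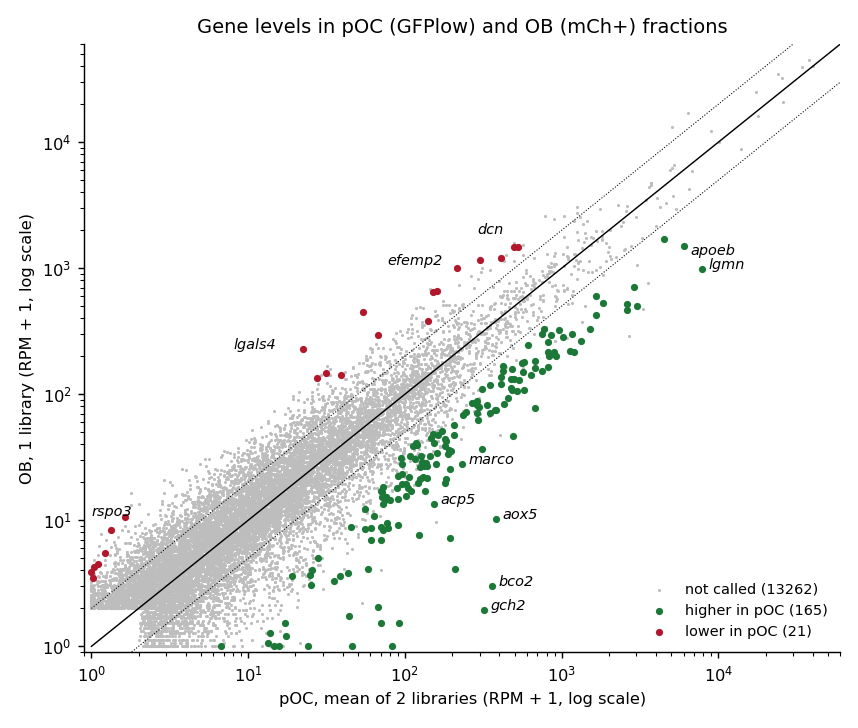
Level of each of the 13448 genes in pOC (x axis, mean of 2 libraries) and in OB (y axis, 1 library), as RPM + 1 on log axes, with equality as a solid line and a 2-fold difference as dotted lines. The 165 genes called higher in pOC lie below the line and the 21 called lower lie above it.

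Macrophage genes were among those higher in pOC. Xanthophore genes such as *gch2* and *aox5* were called higher too, as given below. Which cells carried a gene such as *csf1ra* was not tested. Of the 22 macrophage and monocyte genes tested, 6 were called higher, 0 were called lower, and 13 were at least 2-fold higher in both pOC libraries, with a median log2 difference of 1.80. *csf1ra*, the receptor for CSF1 and IL34, was at 176 and 197 RPM in pOC, against 32.8 RPM in OB, and both pOC libraries lay above OB (log2 difference 2.47 ± 0.25 (SE), limma adjusted p = 0.028). *marco*, a scavenger receptor of macrophages, was at 251 and 210 RPM in pOC, against 27.2 RPM in OB (log2 difference 3.03 ± 0.50, limma adjusted p = 0.049). *cd68*, a membrane protein of macrophage lysosomes, was at 860 and 776 RPM in pOC, against 215 RPM in OB, and was called higher. The perforin-like *mpeg1* genes, which share a symbol and mark macrophages, lay on both sides: ENSDARG00000043093 was at 55.5 and 117 RPM in pOC, against 167 RPM in OB, and ENSDARG00000055290 was at 17.4 and 15.9 RPM in pOC, against 1.94 RPM in OB, and neither was called. Other receptors of immune cells were called too: *il10ra*, a chain of the IL-10 receptor, was at 57.4 and 56.1 RPM in pOC, against 3.14 RPM in OB (log2 difference 3.80 ± 0.45, limma adjusted p = 0.0294), and *havcr1*, a TIM family receptor for phosphatidylserine, was at 86.2 and 67.9 RPM in pOC, against 7.63 RPM in OB (log2 difference 3.17 ± 0.51, limma adjusted p = 0.0472). Among 21 engulfment and scavenger receptors 4 were called higher, 0 were called lower and the median log2 difference was -0.01. Over all genes, 1.23% were called higher and 0.156% lower. The called ones were *marco*, *havcr1*, *scarb1* and *mrc1*, a mannose receptor, which entered through pOC alone and was at 6.55 and 4.85 RPM in pOC, against 0 in OB.

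General leukocyte genes were called in the same direction. Among 30 genes of leukocyte signalling and cytoskeleton, 8 were called higher, 0 lower, and 22 were at least 2-fold higher in both pOC libraries, with a median log2 difference of 1.73. *lcp1*, the leukocyte actin bundler L-plastin, was at 1576 and 1088 RPM in pOC, against 261 RPM in OB. *lcp2a*, an adaptor of immune receptors, was at 144 and 127 RPM in pOC, against 27.2 RPM in OB, and *was*, which drives actin branching in blood cells, was at 88.7 and 57.9 RPM in pOC, against 13.5 RPM in OB. All of these were called higher, with log2 differences of 2.28 to 2.32. *ptprc*, which encodes the pan-leukocyte protein CD45, was at 118 and 118 RPM in pOC, against 31.8 RPM in OB, but was not called (limma adjusted p = 0.0717). Of 6 genes of the phagocyte NADPH oxidase, which makes superoxide, *cybb* was called: it was at 105 and 85.2 RPM in pOC, against 22.3 RPM in OB, and 5 of the 6 were at least 2-fold higher in both pOC libraries. In antigen presentation, 2 of 18 genes were called higher and 0 were called lower, and 6 were at least 2-fold higher in both pOC libraries. The called genes were both *ctss* proteases, of the group described with the lysosome. The class II invariant chain *cd74a* was at 318 and 280 RPM in pOC, against 68.5 RPM in OB, and was not called.

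Cytokine genes varied among themselves. Of 39 chemokines, cytokines and receptors, 2 were called higher, *il10ra* and *ccr9* (ENSDARG00000055186), and 0 were called lower, with 13 at least 2-fold higher and 5 at least 2-fold lower in both pOC libraries and a median log2 difference of -0.16. *ccr9*, a chemokine receptor, was at 400 and 295 RPM in pOC, against 69.4 RPM in OB. *il1b* and *tnfb*, cytokines of activated macrophages, were not called: *il1b* was at 130 and 108 RPM in pOC, against 26.5 RPM in OB, and *tnfb* was at 20.8 and 18.7 RPM in pOC, against 1.34 RPM in OB. The chemokine *cxcl18b* lay the other way, at 90.6 and 117 RPM in pOC, against 327 RPM in OB, and was not called either.

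Lysosomal genes made up the largest called group of the 43 lists. The lists differ in size, share members and were chosen with earlier results of these data known, so this rank is a description. Of 37 lysosomal proteases and hydrolases, 17 were called higher and 0 lower, 26 were at least 2-fold higher in both pOC libraries, and the median log2 difference was 1.73. Their summed level was 39423 and 31590 RPM in pOC, against 9084 RPM in OB. *lgmn*, the asparaginyl protease legumain, was at 8549 and 7069 RPM in pOC, against 984 RPM in OB, and was 7.94-fold higher (log2 difference 2.98 ± 0.22, limma adjusted p = 0.0106). *ctsd*, the aspartic protease cathepsin D, was at 3371 and 2662 RPM in pOC, against 504 RPM in OB (log2 difference 2.57 ± 0.22, limma adjusted p = 0.0167). The cysteine proteases *ctss2.2* and *ctsl.1* had the highest log2 differences of the group. *ctss2.2* was at 312 and 310 RPM in pOC, against 35.6 RPM in OB, and *ctsl.1* was at 76.9 and 74.3 RPM in pOC, against 8.5 RPM in OB. *grna*, a granulin whose peptides act in the lysosome, was at 3180 and 2054 RPM in pOC, against 463 RPM in OB, and *lipa*, the acid lipase, was at 236 and 173 RPM in pOC, against 46.4 RPM in OB. The call did not follow level alone: *ctsb*, cathepsin B, was at 4099 and 1269 RPM in pOC, against 289 RPM in OB, and *ctsc*, cathepsin C, was at 572 and 235 RPM in pOC, against 46.8 RPM in OB, and neither passed, with limma SE of 0.91 and 0.74. Both were chosen after their values were seen.

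Subunits of the vacuolar proton pump, which acidifies lysosomes and, in OCs, the space under the ruffled border, were called in the same direction. Of 22 subunits, 9 were called higher and 0 lower, 16 were at least 2-fold higher in both pOC libraries, and the summed level was 10760 and 9228 RPM in pOC, against 2616 RPM in OB. In the cytosolic part of the pump, which splits ATP, *atp6v1a* (ENSDARG00000076318) was at 434 and 325 RPM in pOC, against 74.1 RPM in OB (log2 difference 2.33 ± 0.32, limma adjusted p = 0.035), and *atp6v1h* was at 1027 and 802 RPM in pOC, against 200 RPM in OB. In the membrane part, *atp6v0c* (ENSDARG00000057853), the proton-carrying ring subunit, was at 3261 and 2513 RPM in pOC, against 714 RPM in OB. *tcirg1* (ENSDARG00000105142), the membrane subunit of the OC pump, was at 1465 and 1838 RPM in pOC, against 427 RPM in OB (log2 difference 1.94 ± 0.24, limma adjusted p = 0.0294). *tfeb*, a transcription factor known in mammals for activating lysosomal genes, was at 78.6 and 123 RPM in pOC, against 18.3 RPM in OB, and was called higher.

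**Figure D3:**
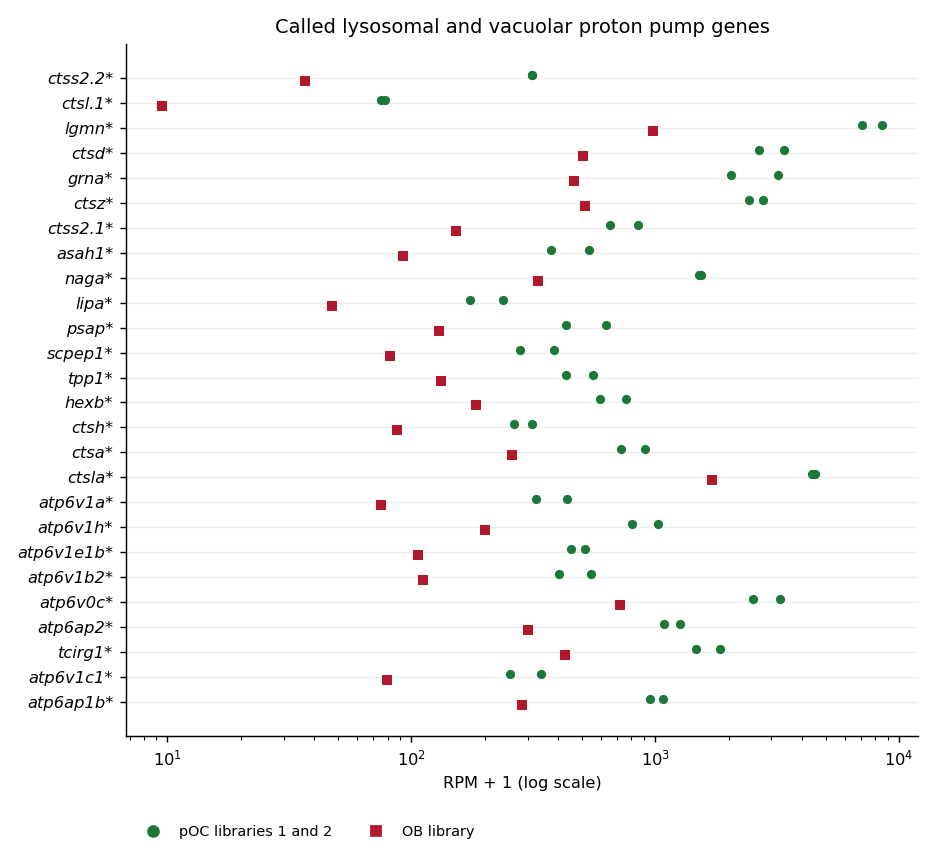
Levels of the 17 lysosomal genes and 9 proton pump genes called between pOC and OB, as RPM + 1 on a log axis, with 1 point per library. In every row both pOC points lie to the right of the OB point, from *ctsl.1* at 76.9 and 74.3 RPM in pOC against 8.5 RPM in OB to *lgmn* at 8549 and 7069 RPM in pOC against 984 RPM in OB.

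Genes particular to bone resorption were less uniform. Among 32 resorption and fusion genes, 4 were called higher and 0 lower, 13 were at least 2-fold higher and 2 at least 2-fold lower in both pOC libraries, and the median log2 difference was 0.74. *acp5*, the gene for tartrate-resistant acid phosphatase, was at 161 and 144 RPM in pOC, against 12.5 RPM in OB (log2 difference 3.5 ± 0.29, limma adjusted p = 0.0165). Its regulatory region drives the GFP of the sort. *slc4a2* (ENSDARG00000052330), a chloride and bicarbonate exchanger that balances proton secretion, was at 94.8 and 122 RPM in pOC, against 16.1 RPM in OB, and was called. *src*, a kinase of the OC actin ring, was at 106 and 128 RPM in pOC, against 39.7 RPM in OB, and was called as well, while *csk*, the kinase that restrains Src, was at 45.7 and 43.8 RPM in pOC, against 46.2 RPM in OB. *ctsk*, the collagen-degrading cathepsin K, was at 2949 and 3522 RPM in pOC, against 1719 RPM in OB, a log2 difference of 0.91 ± 0.21 that did not pass (limma adjusted p = 0.10). *ocstamp*, a membrane protein of OC fusion, was at 23.3 and 32.0 RPM in pOC, against 5.35 RPM in OB, without a call. The levels of *mmp9*, a gelatinase, overlapped at 926 and 673 RPM in pOC, against 901 RPM in OB. *itgb3* (ENSDARG00000045070), an integrin chain of the OC sealing zone, also overlapped, at 11.2 and 14.3 RPM in pOC, against 12.8 RPM in OB. In mOC, by comparison, *acp5* was at 1132 and 1538 RPM, *ctsk* at 8408 and 9433 RPM and *mmp9* at 4818 and 2644 RPM.

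Of 37 transcription factors of the myeloid lineage, 5 were called higher in pOC and 0 were called lower. In both pOC libraries 9 were at least 2-fold higher and 3 at least 2-fold lower, with a median log2 difference of 0.47. *spi1*, which encodes PU.1, was at 593 and 554 RPM in pOC, against 108 RPM in OB (log2 difference 2.40 ± 0.25, limma adjusted p = 0.028), and its paralogue *spi1a* was at 140 and 107 RPM in pOC, against 25.5 RPM in OB. *cebpa*, a regulator of myeloid progenitors, was at 455 and 488 RPM in pOC, against 131 RPM in OB, and *tfec*, a relative of *mitf* in macrophages and pigment cells, was at 56.1 and 63.0 RPM in pOC, against 7.69 RPM in OB. These and *tfeb* were the called factors. *nfatc1*, the factor that RANK signalling induces in OCs, was at 118 and 119 RPM in pOC, against 124 RPM in OB, with a log2 difference of -0.06 ± 0.39.

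Ligands and receptors through which OBs and OCs act on each other had their higher levels in different fractions. Of 27 genes of RANK, CSF1 and ephrin contact, *csf1ra* alone was called, and 10 were at least 2-fold lower in both pOC libraries, with a median log2 difference of -0.99. The ligands of *csf1ra* were not called: *il34* was at 117 and 138 RPM in pOC, against 340 RPM in OB, and *csf1a* was at 7.57 and 14.9 RPM in pOC, against 32.3 RPM in OB. *tnfrsf11a*, which encodes RANK, was at 44.7 and 28.6 RPM in pOC, against 72.3 RPM in OB. *tnfsf11*, which encodes its ligand RANKL, was at 8.88 and 9.20 RPM in pOC, against 13.9 RPM in OB. *tnfrsf11b*, which encodes the decoy receptor osteoprotegerin, was at 224 and 124 RPM in pOC, against 80.5 RPM in OB. None of these 3 was called, although both pOC libraries lay below OB for RANK and its ligand and above OB for osteoprotegerin.

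Lipid genes were also among those higher in pOC. Of 23 lipid handling genes, 4 were called higher and 0 lower, and 12 were at least 2-fold higher in both pOC libraries, with a median log2 difference of 1.35. *apoeb*, an apolipoprotein that macrophages secrete, was at 7488 and 4579 RPM in pOC, against 1487 RPM in OB (log2 difference 1.98 ± 0.28, limma adjusted p = 0.0369). *abca1*, a cholesterol exporter, was at 548 and 577 RPM in pOC, against 149 RPM in OB, and *scarb1*, a receptor for lipoproteins and carotenoids, was at 132 and 124 RPM in pOC, against 28.1 RPM in OB. The remaining called member was *lipa*. Of 13 iron and haem genes limma called 0, with 5 higher and 2 lower at an unadjusted p under 0.05, edgeR called 0, and DESeq2 called 3 higher and 1 lower. *fth1a*, a ferritin heavy chain, was at 3630 and 3494 RPM in pOC, against 767 RPM in OB.

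The called genes with the highest log2 differences included genes of yellow pigment cells, the xanthophores, which store pteridines and carotenoids. *gch2*, a GTP cyclohydrolase of pteridine synthesis in fish, was at 326 and 309 RPM in pOC, against 0.94 RPM or 14 reads in OB, a 338-fold difference in level. *bco2* (ENSDARG00000041715), which cleaves carotenoids, was at 174 and 543 RPM in pOC, against 2.01 RPM in OB (log2 difference 6.68 ± 0.77, limma adjusted p = 0.0286). *aox5*, an aldehyde oxidase that marks xanthophores, was at 316 and 446 RPM in pOC, against 9.23 RPM in OB (log2 difference 5.20 ± 0.33, limma adjusted p = 0.00668). *plin6*, a lipid droplet protein of carotenoid-storing cells in fish, was at 141 and 245 RPM in pOC, against 6.22 RPM in OB (log2 difference 4.70 ± 0.77, limma adjusted p = 0.0474). The pOC libraries differed from each other in *bco2* and *plin6*, with the second library the higher in both, yet each lay far above OB.

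Transporters stood beside these genes. *slc2a15a*, a member of the glucose transporter family, was at 33.6 and 55.8 RPM in pOC, against 0 in OB, at least 223-fold higher against the floor of 3 reads. *slc22a7a*, an organic anion transporter, was at 88.0 and 74.2 RPM in pOC, against 0 in OB, at least 404-fold higher. *cax1*, a calcium and proton exchanger, was at 46.1 and 91.9 RPM in pOC, against 0.54 RPM in OB. *bscl2* (ENSDARG00000025912), which encodes the lipid droplet protein seipin, was at 80.5 and 102 RPM in pOC, against 0.54 RPM in OB. These 4 genes and *gch2* were called higher, but entered through pOC alone, so their calls add nothing to their levels. Chosen after their values were seen, *slc2a15b* was at 73.2 and 92.3 RPM in pOC, against 0 in OB, *bco1*, another carotenoid-cleaving enzyme, was at 80.0 and 59.6 RPM in pOC, against 3.01 RPM in OB, and *pax7* (ENSDARG00000070818), a transcription factor of the xanthophore lineage, was at 17.9 and 21.1 RPM in pOC, against 1.67 RPM in OB. These 3 were not called. *gpr143*, a receptor on pigment organelles chosen in the same way, was at 38.1 and 47.9 RPM in pOC, against 0.74 RPM in OB, and *slc2a11b*, which yellow pigment cells of fish use, was at 14.2 and 18.9 RPM in pOC, against 0.20 RPM in OB. Both also entered through pOC alone.

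As a group, 5 of 35 pigment cell genes were called higher and 0 lower, 14 were at least 4-fold higher and 1 at least 4-fold lower in both pOC libraries, and the median log2 difference was 1.39. Of the called, *gch2* and *slc2a15a* entered through pOC alone, and *scarb1* and *tfec* are also used by macrophages. Within this list that leaves *aox5*. *bco2* and *plin6*, at 2.01 and 6.22 RPM in OB, were called higher too, but are not in this list. By pigment cell type, the 3 xanthophore markers summed to 655 and 757 RPM in pOC, against 10.4 RPM in OB. The 4 melanophore marker IDs summed to 14.2 and 13.1 RPM in pOC, against 2.5 RPM in OB, and the 2 iridophore markers to 11.5 and 21.1 RPM in pOC, against 5.8 RPM in OB. *gpnmb*, a glycoprotein of melanosomes and of macrophages, was at 157 and 159 RPM in pOC, against 8.70 RPM in OB, without a call. In mOC the xanthophore markers summed to 1280 and 1142 RPM, and *gch2* was at 596 and 406 RPM there. The part of xanthophores in the pOC libraries was not tested, and neither was their part in the level of *csf1ra*.

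**Figure D4:**
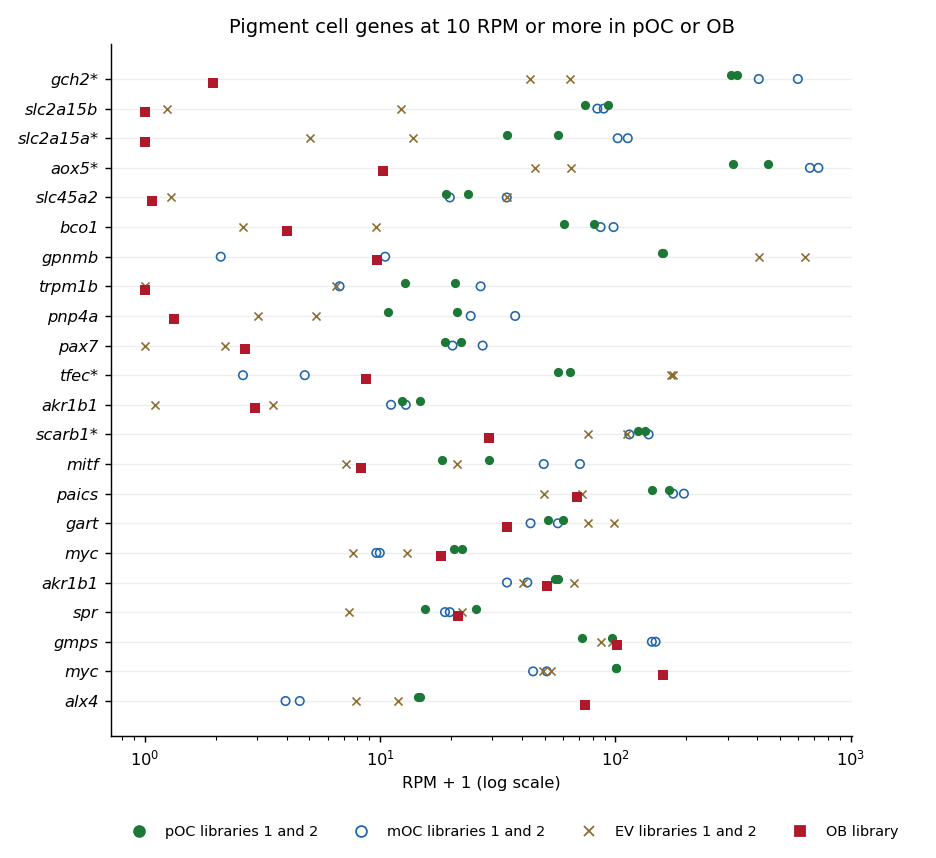
Levels of pigment cell genes that reached 10 RPM in pOC or OB, as RPM + 1 on a log axis, with 1 point per library for pOC, mOC, EV and OB and an asterisk on called genes. For *gch2*, *slc2a15a* and *aox5* both pOC libraries lie far above OB, and mOC lies above pOC.

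Some genes of high log2 difference belong to none of these groups. *gda*, guanine deaminase, was at 545 and 428 RPM in pOC, against 45.4 RPM in OB, and was 10.7-fold higher (log2 difference 3.38 ± 0.25, limma adjusted p = 0.0106). *cpt1b*, which carries fatty acids into mitochondria, was at 101 and 78.3 RPM in pOC, against 8.09 RPM in OB. *epdl1*, an ependymin-like gene, was at 147 and 97.6 RPM in pOC, against 6.62 RPM in OB. *c1ql1*, a secreted protein with a C1q domain, was at 78.9 and 59.1 RPM in pOC, against 6.02 RPM in OB, and *ccdc88b*, a cytoskeletal linker of lymphoid and myeloid cells in mammals, was at 174 and 186 RPM in pOC, against 18.8 RPM in OB. Each was called higher. *vcanb*, the core protein of versican, was the matrix gene called higher, at 899 and 797 RPM in pOC, against 296 RPM in OB (log2 difference 1.51 ± 0.20, limma adjusted p = 0.0325).

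Fibrillar collagen genes lay below OB in pOC but were not called. All 12 fibrillar collagen genes tested had a negative log2 difference, 10 were at least 2-fold lower in both pOC libraries, and their median was -1.56. Their summed level was 12809 and 14339 RPM in pOC, against 36823 RPM in OB. *col1a2*, a chain of collagen I, was at 6182 and 6537 RPM in pOC, against 17068 RPM in OB (log2 difference -1.42 ± 0.43, limma adjusted p = 0.174). Another collagen I chain, *col1a1a*, was at 732 and 835 RPM in pOC, against 2594 RPM in OB, and the collagen V chain *col5a2* was at 717 and 1062 RPM in pOC, against 2467 RPM in OB. Limma called 0 of the 12, with 8 lower and 0 higher at an unadjusted p under 0.05. EdgeR called 0 and DESeq2 called 5 lower. Limma called 7 lower when fitted to the pOC and OB libraries only, and 4 lower when fitted without the EV fraction. Genes for folding, crosslinking and export of collagen followed, with 43 of 45 negative, 25 at least 2-fold lower in both pOC libraries, and a median log2 difference of -1.31. *serpinh1* (ENSDARG00000019949), a collagen chaperone, was at 552 and 577 RPM in pOC, against 1523 RPM in OB. In this list limma called 0, with 20 lower and 0 higher at an unadjusted p under 0.05, edgeR 0 and DESeq2 11 lower.

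Called genes on the lower side included secreted proteins of the matrix. Of 52 non-collagen matrix proteins, 2 were called lower and 0 higher, and 28 were at least 2-fold lower in both pOC libraries, with a median log2 difference of -1.32. *efemp2* (ENSDARG00000094324), which encodes the elastic fibre protein fibulin-4, was at 217 and 209 RPM in pOC, against 1004 RPM in OB (log2 difference -2.23 ± 0.33, limma adjusted p = 0.0387). *fn1* (ENSDARG00000006526), the gene for fibronectin, was at 366 and 457 RPM in pOC, against 1196 RPM in OB (log2 difference -1.55 ± 0.23, limma adjusted p = 0.0387). *dcn*, the collagen-binding proteoglycan decorin, was at 519 and 526 RPM in pOC, against 1480 RPM in OB, the lower of 2 calls among 33 proteoglycan and hyaluronan genes, whose higher call was *vcanb*. *timp4* (ENSDARG00000111805), an inhibitor of metalloproteinases, was at 57.9 and 74.5 RPM in pOC, against 295 RPM in OB, and was the 1 gene called, as lower, of 47 matrix proteases and inhibitors. *clu*, the extracellular chaperone clusterin, was at 534 and 454 RPM in pOC, against 1459 RPM in OB, and *slit3*, a secreted guidance protein, was at 137 and 183 RPM in pOC, against 657 RPM in OB. Both were called lower. *fn1* and *dcn* are also the 2 called members of 23 dermal fibroblast genes, of which 11 were at least 2-fold lower in both pOC libraries.

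Other called genes below OB were outside the matrix lists. *lgals4*, a galectin, was at 27.9 and 14.99 RPM in pOC, against 228 RPM in OB (log2 difference -3.41 ± 0.54, limma adjusted p = 0.0455), and *wu:fk65c09*, an unnamed gene, was at 45.3 and 60.0 RPM in pOC, against 445 RPM in OB. *kank1* (ENSDARG00000060584), an adaptor of the cell cortex, was at 31.3 and 21.5 RPM in pOC, against 133 RPM in OB, *nuak1* (ENSDARG00000028676), a kinase, was at 34.5 and 41.5 RPM in pOC, against 142 RPM in OB, and *fpr1* was at 131 and 170 RPM in pOC, against 647 RPM in OB. All of these were called lower.

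**Figure D5:**
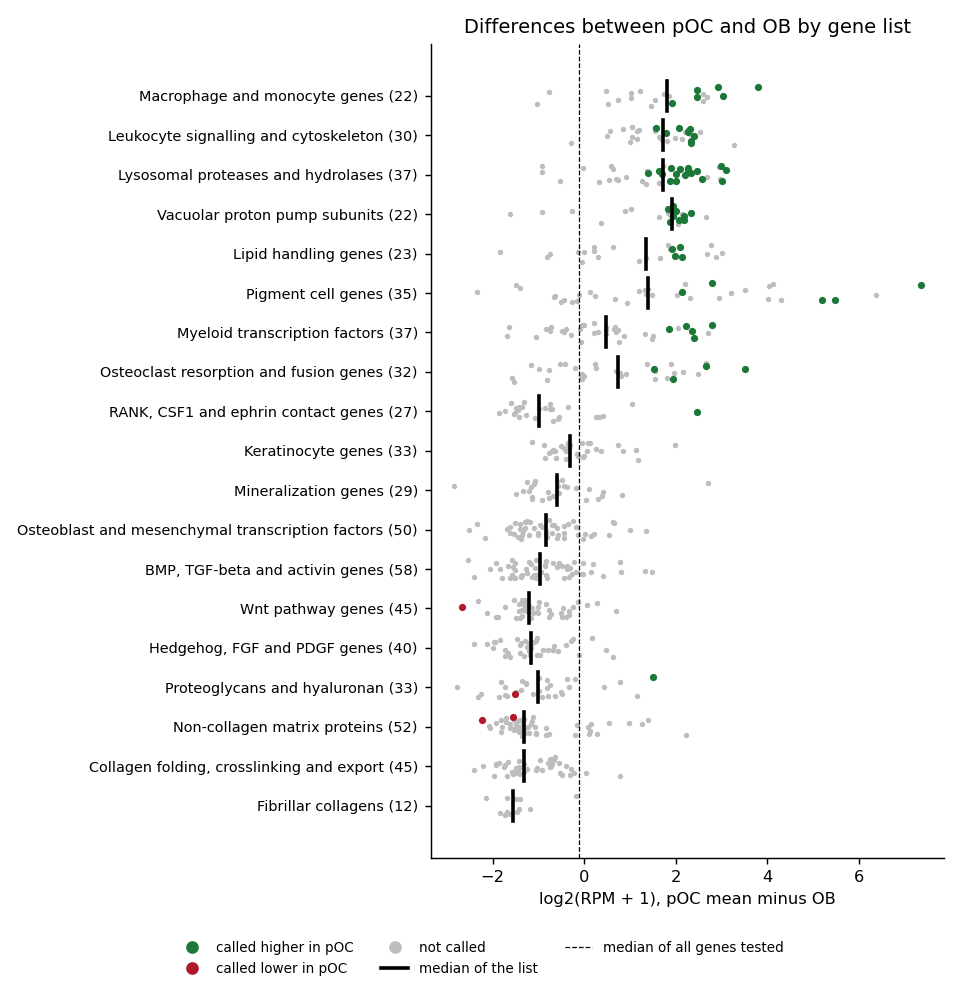
Log2 differences (pOC mean minus OB, on RPM + 1) of the tested genes of 19 lists, with 1 point per gene, the list's size in parentheses, a bar at its median and a dashed line at the median of all genes tested. The medians of macrophage, leukocyte, lysosomal and proton pump genes lie at 1.73 to 1.91, and that of fibrillar collagens lies at -1.56.

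Genes of signals that act on OBs were mostly below their OB level in pOC. In 45 Wnt pathway genes the 1 call, as lower, was *rspo3*, which strengthens Wnt signals and was at 0.12 and 0.53 RPM in pOC, against 7.36 RPM in OB. It entered through OB alone and was at or below the floor of 3 reads in the first pOC library, so its call adds nothing to these levels. In all, 42 of the 45 were below 0 on the log2 scale, 20 were at least 2-fold lower in both pOC libraries, and the median was -1.20. *wif1*, a Wnt inhibitor, was at 81.7 and 135 RPM in pOC, against 400 RPM in OB, and the ligand *wnt11* was at 12.6 and 23.9 RPM in pOC, against 91.1 RPM in OB, neither of them called. *lft2*, a Nodal inhibitor of the TGF-beta family that also entered through OB alone, was at 0.86 and 0.41 RPM in pOC, against 9.57 RPM in OB. It was not in the list of 58 BMP, TGF-beta and activin genes, in which 22 were at least 2-fold lower and 2 at least 2-fold higher in both pOC libraries. *bmp4*, an inducer of bone, was at 5.28 and 3.33 RPM in pOC, against 29.4 RPM in OB. In 40 Hedgehog, FGF and PDGF genes, 17 were at least 2-fold lower and 0 higher in both pOC libraries. *pdgfra* and *pdgfrb*, receptors of mesenchymal cells, were at 27.7 and 25.7 RPM and at 19.9 and 25.6 RPM in pOC, against 120 and 90.6 RPM in OB. *fgfr3*, an FGF receptor of skeletal cells, was at 66.1 and 100 RPM in pOC, against 271 RPM in OB. Limma called 0 of these 58 and 0 of these 40 genes, with 14 and 11 lower and 2 and 0 higher at an unadjusted p under 0.05. EdgeR called 0 of either, and DESeq2 called 3 and 5 lower and 1 and 0 higher. *rspo3*, *lft2*, *wnt11*, *bmp4*, *pdgfra* and *pdgfrb* were chosen after their values were seen, as were *cd74a*, *tnfb*, *il1b*, *mrc1* and *gpnmb* above.

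OB transcription factors and mineralization genes were below OB less evenly. Of 50 OB and mesenchymal transcription factors, 17 were at least 2-fold lower and 1 at least 2-fold higher in both pOC libraries, with a median log2 difference of -0.84. *runx2b*, a regulator of OB fate, was at 5.93 and 3.12 RPM in pOC, against 14.2 RPM in OB. *prrx1* (ENSDARG00000033971), a mesenchymal homeobox gene, was at 70.7 and 78.7 RPM in pOC, against 198 RPM in OB. Limma called 0 of the 50, with 14 lower and 2 higher at an unadjusted p under 0.05, edgeR 0 and DESeq2 6 lower. Of 29 mineralization genes, 6 were at least 2-fold lower and 1 at least 2-fold higher in both pOC libraries, with a median log2 difference of -0.60. *phospho1*, a phosphatase that starts mineral formation and was chosen after its values were seen, was at 2.25 and 1.6 RPM in pOC, against 19.9 RPM in OB (log2 difference -2.84 ± 0.52, limma adjusted p = 0.0636). *alpl*, the tissue-nonspecific alkaline phosphatase, was at 11.9 and 12.04 RPM in pOC, against 28.0 RPM in OB. *sparc*, the collagen-binding protein osteonectin, was at 1274 and 1224 RPM in pOC, against 2735 RPM in OB. The other direction was taken by *spp1*, the gene for osteopontin, which OBs and OCs both make: it was at 4487 and 2119 RPM in pOC, against 475 RPM in OB (log2 difference 2.70 ± 0.55, limma adjusted p = 0.0796). Limma called 0 of the 29, with 4 lower and 2 higher at an unadjusted p under 0.05, edgeR 0, and DESeq2 3 lower and 1 higher.

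Markers of other cells of the scale were compared because the gates could hold them. Of 33 keratinocyte genes 2 were at least 2-fold higher and 1 at least 2-fold lower in both pOC libraries, and they summed to 20340 and 21730 RPM in pOC, against 23308 RPM in OB. *krt4*, an epidermal keratin, was at 870 and 747 RPM in pOC, against 1304 RPM in OB, *krt8* was at 8925 and 11303 RPM in pOC, against 10082 RPM in OB, and *epcam* was under 1 RPM in all of these libraries. Limma called 0 of the 33, with 2 higher and 2 lower at an unadjusted p under 0.05, beside 1217 and 998 of all 13448 genes, and edgeR and DESeq2 called 0. The part of keratinocytes in either fraction was not tested. The marker sums were low for neutrophils, at 2.7 and 0.6 RPM in pOC, against 0 in OB, with *lyz* at 0, and for lymphocytes, at 1.8 and 8.7 RPM in pOC, against 1.5 RPM in OB, with *lck* at 0. Endothelial markers summed to 4.8 and 1.4 RPM in pOC, against 7.1 RPM in OB, erythrocyte markers to 0.1 and 0.1 RPM in pOC, against 0 in OB, with *hbaa1* at 0, and glial markers to 3.6 and 3.3 RPM in pOC, against 0 in OB, with *mpz* at 0. Of 3 markers each for neutrophils, endothelium and erythrocytes, 2 matched a gene symbol, and *mpx*, *pecam1* and *hbba1* did not. Low sums of so few markers do not show that these cells were absent.

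Broader lists of other cell types held few calls. *fermt3* (ENSDARG00000030938), the integrin activator kindlin-3 of blood cells, was the 1 call among 7 erythrocyte and thrombocyte genes, at 751 and 889 RPM in pOC, against 164 RPM in OB, and *ccr9* was the 1 call among 10 lymphocyte genes, both higher. Leukocytes of several kinds use both genes. The median log2 differences were 1.13 in 6 neutrophil genes, -0.25 in 14 endothelial genes and 0.14 in 10 neural and glial genes. Limma and edgeR called 0 in each of these 3 lists, with 3, 1 and 2 higher and 0, 1 and 1 lower at an unadjusted p under 0.05, and DESeq2 called 1, 1 and 0 higher. Among the remaining groups, the medians were -0.88 in 28 other collagens, -0.52 in 40 cell junction genes, -0.19 in 23 integrin subunits, 0.95 in 12 complement genes, -0.16 in 48 genes of ER stress and 0.62 in 13 mitochondrially encoded genes. Limma and edgeR called 0 in each of these, with 0, 1, 2, 3, 2 and 4 higher and 10, 12, 2, 2, 3 and 0 lower at an unadjusted p under 0.05 in the same order. DESeq2 called 0, 1, 1, 1, 0 and 2 higher and 3, 5, 1, 1, 0 and 0 lower.

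Genes of general cell functions were compared as well, and not all of these lists were neutral. Of 22 glycolysis genes, 2 were called higher and 0 lower, *eno1* (ENSDARG00000013750) and *aldoc* (ENSDARG00000019702), with a median log2 difference of 0.89. *eno1*, an enolase, was at 222 and 190 RPM in pOC, against 55.5 RPM in OB. *aldoc*, an aldolase, was at 1665 and 1633 RPM in pOC, against 599 RPM in OB. Of the 22 glycolysis genes, 13 were higher and 0 lower at an unadjusted p under 0.05 in limma. EdgeR called 0 of them and DESeq2 called 5 higher. Of 70 mitochondrial ATP and TCA genes, 65 were above 0 on the log2 scale, but 3 were at least 2-fold higher in both pOC libraries, and the median was 0.63. The 72 cytosolic ribosomal protein genes had a median of 0.00, with 36 above and 36 below 0. The 31 heat shock genes summed to 130218 and 146670 RPM in pOC, against 147515 RPM in OB, with a median log2 difference of 0.16, and the 41 immediate early genes, which respond to handling and injury, had a median of -0.24. The 48 cell cycle and DNA replication genes had a median of -0.46, and 2 of them were at least 2-fold lower in both pOC libraries. Limma, edgeR and DESeq2 called 0 of the mitochondrial, ribosomal and cell cycle genes, with 16, 0 and 0 higher and 0, 0 and 6 lower at an unadjusted p under 0.05. Limma and edgeR called 0 of the heat shock and immediate early genes as well, with 4 and 2 higher and 1 and 5 lower at an unadjusted p under 0.05, and DESeq2 called 1 and 1 higher and 0 and 4 lower.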

How the data were processed

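The authors made Quartz-seq cDNA (oligo-dT priming, poly-A tailing, PCR), Nextera XT libraries and NextSeq500 reads. HISAT2 2.1.0 aligned the reads to GRCz11 and Subread 1.6.4 gave RPM, per the methods and the submitters' processing notes. Which annotation release and strand option they used is not given in the sources used here, so overlapping genes, antisense genes and near-identical paralogues may share reads. The deposited RPM values of 32057 genes, listed to 2 decimals, were used without further scaling. Of the IDs, 28988 had a symbol in the gene name table, and 1770 symbols belonged to more than 1 gene, for which the Ensembl ID is given.

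Log2(RPM + 1) of the 13448 genes at 1 RPM or more in both pOC libraries or in OB was fitted with limma 3.58.1 (trend and robust settings, 4 fraction means, 7 distinct libraries, 3 residual degrees of freedom, median of 3.64 prior degrees of freedom). Calls required a log2 difference beyond 1 and a p under 0.05 after Benjamini-Hochberg adjustment over all genes tested. Fold changes on RPM + 1 understate those of low genes. A fold in plain RPM is the mean of pOC over OB, or over 3 OB reads where OB was at 0. The fit was tested on simulated data. There limma called 0 of 50 genes with a 2-fold change, 7 of 49 with 4-fold, 26 of 50 with 8-fold and 34 of 50 with 16-fold. Of the 12181 genes in the simulated test, 11982 were unchanged. In the real data, 1231 genes were at least 2-fold higher and 1183 at least 2-fold lower in both pOC libraries. The simulated rates therefore need not hold for the 13448 genes tested. Limma also called 15 of the 11982 genes simulated without a change, beside 0, 7, 26 and 34 right calls in the groups above. Part of the simulated calls at this threshold were thus false. The share of false calls among the real ones was not tested. The simulated OB varied like the other fractions, so the simulation could not test that assumption. Alternatives were edgeR 4.0.16 and DESeq2 1.42.0 on reads recovered from RPM (100% of values under 20 RPM were whole within 0.005 RPM, although in pOC chance gives 24.4%), other scalings, pseudocounts and filters, other sets of libraries and a replicate block. R 4.3.3 and Python 3.11.15 were used.

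Genes were described in 43 lists and 12 marker lists, by counts and medians without a test of the list. Genes were named if they were cell type markers, among the 15 called genes per direction with the largest log2 difference, a symbol and at least 50 RPM, among up to 5 called and the 3 highest members of a list, or named by the study. Others are marked as chosen after their values were seen. Members and lists were chosen with earlier results of these data known.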

Additional observations from a re-analysis of the deposited data

How the results depend on the processing

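Settings changed how many genes were called. Under them 0 of the 165 higher and 0 of the 21 lower genes changed direction, which the selection left little room for. These genes had absolute log2 differences of at least 1.22 (higher) and 1.44 (lower) in the same data. Every setting also used the same OB library. The number called higher in pOC was 332 after quantile normalization, 58 with no low-value filter, 253 with a minimum of 5 RPM, 557 with only the pOC and OB libraries, 682 without the EV fraction, 2 in edgeR and 644 in DESeq2. The number called lower was 84 after quantile normalization, 13 with TMM factors, 5 with a pseudocount of 0.1 RPM and 35 with one of 5 RPM. It was 302 with only the pOC and OB libraries, 321 without the EV fraction, 0 in edgeR (463 at an unadjusted p under 0.05) and 222 in DESeq2. With no low-value filter 20 genes were called lower, but 3 of these were among the 21 of the main fit. DESeq2 tested 10058 genes and the fit with no filter 23793. The cause of these differences was not tested. Leaving out 1 library gave 0 to 685 genes higher and 0 to 315 lower: 0 in both directions without pOC 1, pOC 2, mOC 1 or mOC 2, and 679 to 685 higher and 304 to 315 lower without EV 1 or EV 2. Of the genes at least 4-fold apart in both pOC libraries, 594 were higher and 311 lower with a pseudocount of 0.1 RPM, 97 and 4 with one of 5 RPM, and 370 to 472 and 158 to 247 with 1 pOC library alone. The median log2 difference of all genes was 0.01 in edgeR, against -0.11 in limma. No called gene named here changed sign, but genes close to 0 did: *nfatc1* was at 0.03 and *csk* at 0.05 on the log2 scale with TMM factors, and at 0.04 and 0.06 in edgeR. *itgb3* (ENSDARG00000045070) was at 0.05 after quantile normalization, 0.08 with TMM factors and 0.10 in edgeR, and *krt8* was at 0.27, 0.09 and 0.11 under the same settings. With 1 pOC library left out, *itgb3* ranged between -0.17 and 0.15, *krt8* between -0.18 and 0.16 and *mmp9* between -0.42 and 0.04.

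A replicate block gave 165 higher and 14 lower genes, of which 131 and 13 were among the 165 and 21 called without it, so the counts hide a change of genes. The numbers were not taken as pairs. The differences between replicates 1 and 2 correlated across genes at r = 0.177 for pOC and mOC, 0.065 for pOC and EV and 0.076 for mOC and EV, and the OB fraction had 1 library. Low correlations over all genes do not exclude pairs. *ctsb* and *ctsc* were lower in replicate 2 in pOC, mOC and EV alike, while *csf1ra* was not. The block placed OB midway between the replicates, although its values carry the name of the second. Values of 3 reads, 0.123 RPM in pOC and 0.201 RPM in OB, limit what could be seen in low genes such as *rspo3* and *sp7*.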

Other observations

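Called genes of the pOC fraction differed in their levels in mature OCs, which were sorted from fractured scales by higher GFP. Whether both fractions came from the same scales is not given. Among macrophage genes, *marco* was at 251 and 210 RPM in pOC and at 21.0 and 20.3 RPM in mOC, and *spi1a* was at 140 and 107 RPM in pOC and at 5.33 and 4.06 RPM in mOC. The lysosomal protease *lgmn* was at 8549 and 7069 RPM in pOC and at 599 and 468 RPM in mOC, *gda* was at 545 and 428 RPM in pOC and at 11.3 and 11.3 RPM in mOC, and *cybb* was at 105 and 85.2 RPM in pOC and at 8.34 and 8.13 RPM in mOC. For all of these both pOC libraries lay above both mOC libraries, and mOC lay below OB.

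Some other called genes were at like or higher levels in mOC. They lay above OB in EV, as did all the genes named in the preceding paragraph. There, *lgmn* was at 9101 and 10725 RPM and *gda* at 1077 and 1209 RPM in EV. *csf1ra* was at 176 and 197 RPM in pOC and at 173 and 201 RPM in mOC, and *spi1* was at 593 and 554 RPM in pOC and at 713 and 779 RPM in mOC. The proton pump subunit *atp6v1h* was at 1027 and 802 RPM in pOC and at 1675 and 1778 RPM in mOC, and *cpt1b* was at 101 and 78.3 RPM in pOC and at 332 and 284 RPM in mOC. In EV, *csf1ra* was at 92.2 and 91.9 RPM and *spi1* at 644 and 911 RPM. *atp6v1h* was at 672 and 859 RPM there, and *cpt1b* at 114 and 69.4 RPM. The calls of these genes all rest on the same OB library, and no test of pOC against mOC or EV is reported here.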
